A study of Homo sapiens with 6 samples.

Results

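The integrin and laminin genes were 37 genes, 26 for integrin subunits and 11 for laminin chains, out of 20037 protein-coding genes and 38340 protein-coding and long non-coding RNA genes on the chromosomes. The rule used their names and no measured value, and each was followed through the accessible regions (peaks) near its ends and along its span. A peak counted as an end peak of a gene when its midpoint lay within 1 kb of either end of the gene's RefSeq span (assembly GRCh38.p14). The gene table used gives no strand, so both ends of a gene were treated alike, and the start could be told from the other end only for the 26 members with a RefSeq promoter sequence.

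Accessibility had been measured by ATAC-seq, in which a transposase inserts sequencing adapters into open DNA. The cells were NCI-H1703, an established line from human lung squamous cell carcinoma. In one group of 3 libraries DLGAP1-AS2, a long non-coding RNA, had been silenced, and the titles of these libraries read ASO with a number. The other 3 libraries, titled NC with a number, came from control cells of the same line, and the labels say no more about what the controls received. Each library was made from 10000 to 50000 cells. The labels do not say whether the libraries of a group came from separate cultures, so p-values here measure only the spread between these libraries. The series title links the RNA to YAP signalling. The files hold no RNA levels, so the silencing itself could not be checked, and an open region is not a measure of expression.

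Integrins are receptors made of an alpha and a beta subunit that span the cell membrane, bind the extracellular matrix or other cells outside, and couple to actin or keratin filaments inside. Laminins are trimers of an alpha, a beta and a gamma chain that form the sheet of the basement membrane and are bound by several integrins. In stratified and airway epithelia, laminin and its receptors hold basal cells to the basement membrane, and genes for matrix and adhesion proteins are known targets of YAP, which binds DNA through TEAD factors.

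A set of 5 promoters is shown first, each as the 250 bases before the transcript start, because it spans the range from the strongest to no end peak. ITGA10 and ITGAV had the highest mean rank of end peak among the members with a RefSeq promoter and an end peak in all 6 libraries, LAMB1 and ITGA6 had the lowest, and ITGB6 was the sole member with no end peak in any library. Capitals mark matches, on either strand, to GGAATG (the TEAD motif, CATTCC on the other strand) or to GGGCGG (the SP/KLF motif, CCGCCC on the other strand). TGANTCA, the AP-1 motif, has no match in these 5 stretches. The sequences are RefSeq's (GRCh38.p14), 5′ to 3′ on the gene's strand, from chr1:145910051-145910300 (-) for ITGA10, chr2:186589806-186590055 (+) for ITGAV, chr7:108003162-108003411 (-) for LAMB1, chr2:172427086-172427335 (+) for ITGA6 and chr2:160200273-160200522 (-) for ITGB6.
ITGA10: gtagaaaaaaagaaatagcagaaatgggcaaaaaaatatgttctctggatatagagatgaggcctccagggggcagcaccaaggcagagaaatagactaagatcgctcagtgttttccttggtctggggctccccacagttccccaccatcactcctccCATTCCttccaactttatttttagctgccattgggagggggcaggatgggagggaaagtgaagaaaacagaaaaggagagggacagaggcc
ITGAV: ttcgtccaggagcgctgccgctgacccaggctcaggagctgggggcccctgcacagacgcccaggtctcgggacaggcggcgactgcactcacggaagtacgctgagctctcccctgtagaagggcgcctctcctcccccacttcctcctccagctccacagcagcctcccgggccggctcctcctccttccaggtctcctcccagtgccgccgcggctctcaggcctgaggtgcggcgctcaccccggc
LAMB1: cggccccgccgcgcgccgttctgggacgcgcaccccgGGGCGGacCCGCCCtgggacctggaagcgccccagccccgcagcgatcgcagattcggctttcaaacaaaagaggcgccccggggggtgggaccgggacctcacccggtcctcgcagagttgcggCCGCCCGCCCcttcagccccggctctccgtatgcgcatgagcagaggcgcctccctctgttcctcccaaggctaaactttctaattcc
ITGA6: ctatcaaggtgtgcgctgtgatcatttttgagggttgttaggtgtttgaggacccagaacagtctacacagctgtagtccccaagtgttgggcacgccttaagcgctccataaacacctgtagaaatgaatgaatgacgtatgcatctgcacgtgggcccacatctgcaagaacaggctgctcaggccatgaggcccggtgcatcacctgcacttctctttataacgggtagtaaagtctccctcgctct
ITGB6: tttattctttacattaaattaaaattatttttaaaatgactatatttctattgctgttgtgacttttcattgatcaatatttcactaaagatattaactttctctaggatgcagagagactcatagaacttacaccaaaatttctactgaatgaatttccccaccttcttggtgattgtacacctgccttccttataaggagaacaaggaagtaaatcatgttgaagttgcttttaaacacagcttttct
The single TEAD match of ITGA10 starts at position -91, counted back from the transcript start. The 4 SP/KLF matches of LAMB1 start at -213, -205, -88 and -84, and the last pair overlap in 1 run. No match to these motifs lies in the stretches of ITGAV, ITGA6 and ITGB6. ITGB6 has a GC content of 30.0% and no CpG, while ITGAV has 70.8% GC with 18 CpG and LAMB1 70.4% with 28.

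The lists held 91346 to 170882 peaks per library. Read totals are not in the files, so depth in reads is unknown. Silenced replicate 3 had the lowest heights (median height of the end peak 17 over the 15506 genes with an end peak in all 6 libraries, against 34 to 40 in the other 5 libraries), and control replicate 2 had the shortest list. Of 10 squamous markers, 2 had an end peak in all 6 libraries (SOX2 and S100A2), 6 in 1 to 5 libraries and 2 in none (KRT6A and DSC3). TP63, which defines basal and squamous cells, was called in 4 libraries at heights of 2 to 5, and KRT5 and KRT14 in 1 library each at a height of 3. Of other epithelial and lung adenocarcinoma markers, 3 of 7 were called in all 6 libraries (KRT8, NKX2-1, NAPSA). The counts were 3 of 6 for mesenchymal markers (VIM, CDH2, ZEB1) and 1 of 6 for leukocyte markers (SPI1). Among all protein-coding genes 58.0% had an end peak in all 6 libraries, so such a call does not by itself tell a cell type. Only the ends of each span were read, so a start inside a gene would be missed. The other 8 squamous markers were not called in all 6 libraries. NKX2-1 and NAPSA, from the list with lung adenocarcinoma markers, were called as widely as SOX2 and S100A2.

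Of the 37 members, 23 (62.2%) had an end peak in all 6 libraries, 13 in 1 to 5 libraries and 1 in none. Among all protein-coding genes 58.0% had an end peak in all 6 libraries and 16.5% in none. The integrins held 17 of 26 such genes and the laminins 6 of 11. All 3 genes of the laminin-binding alpha subunits, both of the alpha4/alpha9 class and both gamma chains of laminin were called in all 6 libraries, against 1 of 5 leukocyte alpha subunits. The height of a peak is the authors' pileup, the number of fragments or read ends stacked at the peak. It averages over all cells of a library, so fewer open cells and less opening per cell cannot be told apart. Heights were not scaled to a common depth, so strength was compared as a percentile: the rank of a gene's end peak by fold enrichment over local background, within its library, among the 15506 genes. All lists of 6 values below give silenced replicates 1, 2 and 3 and then control replicates 1, 2 and 3.

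**Figure D1:**
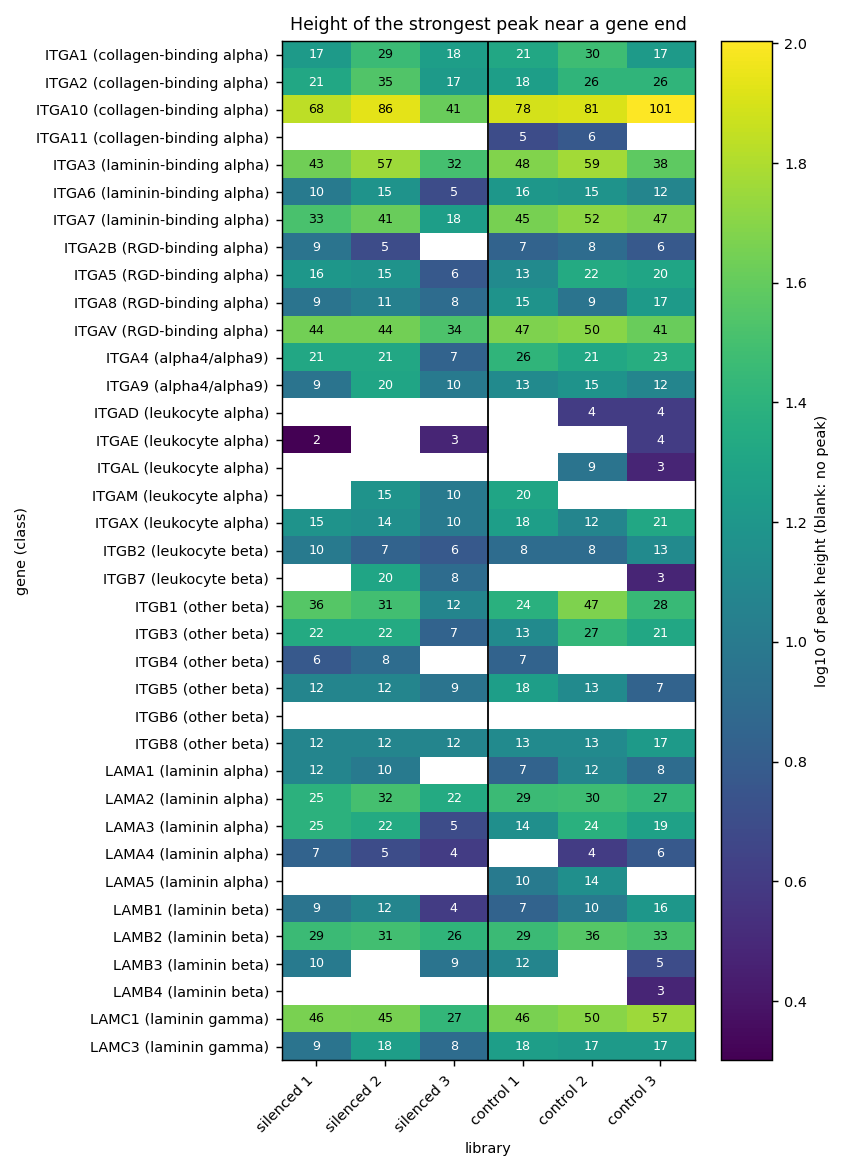
Height of the strongest end peak for the 37 genes (rows, with their class) in the 6 libraries (columns), printed in each cell and coloured on a log10 scale, with blank cells where no end peak was called. ITGA10 is the tallest row, from 41 to 101, and the leukocyte alpha subunits, ITGB6 and several laminin alpha and beta chains hold most of the blanks.

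Among the collagen-binding alpha subunits, ITGA10, a collagen receptor subunit best known from cartilage (chr1:145891208-145910050), had the strongest end peak of all members. Its heights were 68, 86, 41, 78, 81 and 101, and its mean percentile was 86.4. This peak lay 869 to 930 bp inside the gene from its 3′ end, not at the promoter printed above, and the nearest end of another gene, ANKRD35-DT, was 3655 bp away. The promoter window of ITGA10 carried a second, lower peak in all 6 libraries, at heights of 27, 20, 15, 13, 22 and 18. ITGA1, which pairs with the ITGB1 product to bind collagen, was called at its start in all 6 libraries at heights of 17, 29, 18, 21, 30 and 17, where the gene PELO also has an end. ITGA2, the subunit of a receptor for fibrillar collagen, had heights of 21, 35, 17, 18, 26 and 26 and percentiles of 28.8, 39.5, 51.2, 17.2, 30.4 and 30.0. The percentile ranges of its groups overlapped, with silenced replicate 3 the highest and control replicate 1 the lowest. ITGA11, a collagen receptor subunit of mesenchymal cells, was called in control replicates 1 and 2 alone, at heights of 5 and 6.

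The 3 laminin-binding alpha subunits were called in all libraries. ITGA3, a laminin receptor subunit of epithelial cells (chr17:50056110-50090481), had tall peaks of 43, 57, 32, 48, 59 and 38 at its low-coordinate end, next to an end of PICART1. Its rank depended on the measure, with a mean percentile of 65.3 by height and 25.4 by fold enrichment. The local background under this peak was 3.02 to 6.58, where the library medians were 1.04 to 2.50. ITGA6, whose product joins that of ITGB4 in hemidesmosomes, was low at its start, with heights of 10, 15, 5, 16, 15 and 12 and a mean percentile of 14.2. ITGA7, a laminin receptor subunit of muscle, had heights of 33, 41, 18, 45, 52 and 47 at its high-coordinate end. The median peak midpoint over the libraries was 408 bp from an end of BLOC1S1. The percentiles of ITGA7 were 25.4, 32.1, 35.6, 38.3, 41.3 and 44.6, lower in every silenced than in every control library. No other of the 23 ranked members had groups that did not overlap; over all 15506 genes 5.20% lay wholly lower and 5.63% wholly higher in silenced libraries, so 1 of 23 lower and 0 of 23 higher is no more than the share over all genes.

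Among the subunits that bind RGD motifs, ITGAV, which pairs with several beta subunits to bind vitronectin and latent TGF-beta (chr2:186590056-186680901), had heights of 44, 44, 34, 47, 50 and 41 over the promoter printed above. Its mean percentile, 69.9, was the second of the members. ITGA5, the fibronectin receptor subunit, was called at its 3′ end in all 6 libraries at heights of 16, 15, 6, 13, 22 and 20, with midpoints 812 to 905 bp outside the gene. A peak overlapped its promoter window in 3 libraries, silenced replicates 1 and 2 and control replicate 3, at heights of 9, 8 and 7. ITGA8, a nephronectin receptor subunit, was called at its start in all 6 libraries at heights from 8 to 17. ITGA2B, which platelets use to bind fibrinogen, was called in 5 libraries at heights of 5 to 9, at its start in 3 of them and its 3′ end in 2, and was not called in silenced replicate 3.

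ITGA4 and ITGA9, which bind VCAM1, fibronectin and other ligands, were both called throughout. ITGA4 (chr2:181457205-181538940) had heights of 21, 21, 7, 26, 21 and 23 at its start and a mean percentile of 48.8, with silenced replicate 3 far below the other libraries. ITGA9 was weaker, with heights of 9 to 20 and a mean percentile of 17.5.

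The subunits known from leukocytes were the least often called. ITGAX, a complement receptor subunit of myeloid cells, and ITGB2, the beta subunit shared by the leukocyte receptors, were called in all 6 libraries at heights of 10 to 21 and 6 to 13. No strand was available for either gene, and both peaks lie inside the gene near its high-coordinate end. The ITGB2 peak ranked lowest of all 23, with a mean percentile of 9.36. ITGAD was called in control replicates 2 and 3 alone, at a height of 4 in both. ITGAL, the lymphocyte subunit that binds ICAM1, was also called in these 2 libraries alone, at heights of 9 and 3, and the peaks lay at different ends of the gene. ITGAE, whose product binds E-cadherin, was called in silenced replicates 1 and 3 and control replicate 3 at heights of 2, 3 and 4. ITGAM, the alpha subunit of another complement receptor, was called in silenced replicates 2 and 3 and control replicate 1 at heights of 15, 10 and 20. ITGB7, a subunit of gut-homing lymphocytes, was called in silenced replicates 2 and 3 and control replicate 3 at heights of 20, 8 and 3. The first 2 of these peaks lay at its 3′ end and the last at its start. The merged region at the 3′ end (chr12:53190144-53190536) was called in all 6 libraries, at heights of 12, 20, 8, 21, 16 and 18. Its peak midpoints fell on either side of the 1 kb limit.

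Of the other beta subunits, 4 of 6 were called in all libraries. ITGB1, the partner of most alpha subunits of the matrix receptors, had heights of 36, 31, 12, 24, 47 and 28 at its start and a mean percentile of 25.6. ITGB3, the partner of ITGAV and ITGA2B, reached 7 to 27, and ITGB8, which helps to activate TGF-beta, 12 to 17. ITGB5, a vitronectin receptor subunit, was called at heights of 7 to 18 but at its 3′ end in 4 libraries and its start in 2. It has 2 further RefSeq promoter windows, 13.7 and 14.1 kb inside the gene, and both carried a peak in all 6 libraries. The heights over the window at 14.1 kb were 34, 28, 15, 43, 42 and 49, so the tallest ITGB5 promoter peak was not at the end of the gene's span. ITGB4, the laminin receptor subunit of hemidesmosomes, was called in silenced replicates 1 and 2 and control replicate 1 at heights of 6, 8 and 7. ITGB6, an epithelial subunit that binds latent TGF-beta (chr2:160099671-160200272), had no end peak in any library.

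Of the laminin alpha chains, LAMA2 and LAMA3 were called in all 6 libraries. LAMA2, the chain of muscle and nerve basement membranes (chr6:128883138-129516566), had heights of 25, 32, 22, 29, 30 and 27 at its start and a mean percentile of 50.2, the third of the members. LAMA3, the alpha chain of the main epithelial laminin, had heights of 25, 22, 5, 14, 24 and 19 at the start of its full span. Its single RefSeq promoter window in the table lies 184 kb inside the gene and holds 2 AP-1 matches, and no peak overlapped it in any library. LAMA1, an alpha chain of embryonic laminin, was called in 5 libraries at heights of 7 to 12 and not in silenced replicate 3. LAMA4, the chain of vessel walls, was called in 5 libraries at heights of 4 to 7 and not in control replicate 1. LAMA5, the broadly used epithelial chain, was called in control replicates 1 and 2 alone, at heights of 10 and 14, 968 to 994 bp inside its 3′ end.

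Both gamma chains and 2 of 4 beta chains were called in all 6 libraries. LAMC1, the gamma chain of most laminins (chr1:183023420-183145592), was the tallest laminin gene, at heights of 46, 45, 27, 46, 50 and 57 and a mean percentile of 43.3. LAMC3 was lower, at heights of 8 to 18. LAMB2, the beta chain of muscle and kidney basement membranes (chr3:49121114-49133050), had heights of 29, 31, 26, 29, 36 and 33 and a mean percentile of 50.0. In 5 libraries this LAMB2 peak lay at the 3′ end, and in silenced replicate 3 it lay near the start. The median peak midpoint over the libraries was 68 bp from an end of USP19. Both ends of LAMB2 carried a merged region in all 6 libraries, and the peak with the higher fold enrichment was taken. The region at the start (chr3:49132469-49134034) had heights of 22, 37, 26, 30, 32 and 40. LAMB1, whose promoter with 4 SP/KLF matches is printed above, had low peaks at heights of 9, 12, 4, 7, 10 and 16 and a mean percentile of 12.4. LAMB3, the beta chain of the main epithelial laminin, was called in silenced replicates 1 and 3 and control replicates 1 and 3 at heights of 10, 9, 12 and 5. LAMB4 was called in control replicate 3 alone at a height of 3.

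The 1 kb limit itself decided several of these calls. ITGAM, ITGB7, ITGB4 and LAMA5 were called in 3, 3, 3 and 2 libraries within 1 kb and in all 6 libraries within 2 kb, and LAMA1 went from 5 to 6. Within 500 bp 20 members were called in all 6 libraries, within 1 kb 23 and within 2 kb 28. Of all 38340 protein-coding and long non-coding RNA genes, 15506 were called in all 6 libraries within 1 kb and 18041 within 2 kb. For 500 bp all genes were not counted. ITGB6 was in none at each of the 3 distances. With peaks limited to an FDR (the authors' adjusted p-value) of at most 1e-05, 13 members were called in all 6 libraries and 10 in none. Under this limit 11614 of all genes were called in all 6 libraries, and the number in none was not counted.

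The comparison of groups asked whether silencing DLGAP1-AS2 was accompanied by a change in accessibility at these genes. Silenced replicates 1, 2 and 3 had 29, 29 and 28 members with an end peak, and control replicates 1, 2 and 3 had 30, 30 and 32. The groups did not overlap, with means of 28.7 ± 0.577 and 30.7 ± 1.15 genes (SD, n = 3 each). The difference of -2 genes had p = 0.1 in an exact permutation test (two-sided), the smallest p that 3 against 3 libraries allow, and an adjusted p of 0.4 over 4 tests on the members. The share of all protein-coding genes with an end peak was 68.2% ± 2.77 and 69.1% ± 1.77 (SD, n = 3 each) in the same order. The size of the difference moved with the distance. With midpoints within 500 bp it was -2.67 genes (exact permutation p = 0.2), within 2 kb it was -0.333 (exact permutation p = 1), and over the RefSeq promoter windows it was 0 (exact permutation p = 1). It was -1 with lists of equal size (exact permutation p = 0.4).

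No member had an end peak in every library of just one group (3 against 0), where 0.0848% of protein-coding genes were called in silenced libraries only and 0.195% in control libraries only. Without control replicate 1, ITGAD and ITGAL were called in control libraries only, and without control replicate 3 ITGA11 and LAMA5 were. Each of these 4 genes had an end peak in just 2 of 6 libraries. The share of all genes called in one group only with 1 library left out was not counted. The shares above are for 3 against 0 and cannot be set beside these calls.

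**Figure D2:**
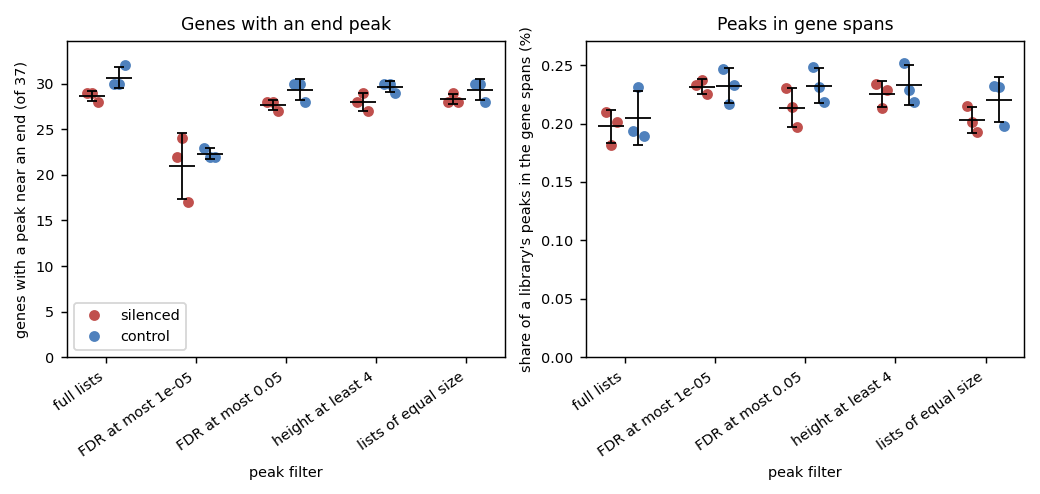
Left, number of the 37 genes with an end peak, and right, share of a library's peaks (%) that overlap their spans, for each library (points, 3 silenced and 3 control) under 5 peak filters, with the mean and SD as black bars. In the full lists the silenced libraries lie at 28 to 29 genes and the control libraries at 30 to 32, and under the FDR limit of 1e-05 the groups overlap at 17 to 24 and 22 to 23.

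The whole spans held 341, 306 and 244 peaks in silenced and 332, 211 and 313 peaks in control libraries. As a share of all peaks this was 0.210%, 0.182% and 0.201% in silenced and 0.194%, 0.231% and 0.189% in control libraries. The groups overlapped on both measures. The mean shares of 0.198% ± 0.0143 and 0.205% ± 0.0229 (SD, n = 3 each) differed by less than the replicate spread (exact permutation p = 0.7, adjusted p = 0.933). The highest share belonged to control replicate 2, which has the shortest list.

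The median percentile of the 23 members with an end peak in all 6 libraries was 25.6, 30.4 and 32.2 in silenced and 24.7, 30.4 and 33.1 in control libraries. These 23 members had to be called in every library, so they stand for themselves and not for the 14 that were left out. The group means were 29.4 ± 3.39 and 29.4 ± 4.34 (SD, n = 3 each; exact permutation p = 1). In each library the median height of the members, 10 to 24, was below that of all 15506 genes, 17 to 40.

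Each gene was then tested alone, with limma on normal scores of the ranks over all 15506 genes and Benjamini-Hochberg adjustment over all of them. No member passed an adjusted p of 0.05 and none had an unadjusted p under 0.05. Over all genes 2 passed (0.0129%) and 785 (5.06%) had an unadjusted p under 0.05, 1.97% higher and 3.10% lower in silenced libraries. Of the members 12 had a higher and 11 a lower mean score in silenced libraries, with a median difference of 0.01, the same as over all genes. The smallest unadjusted p among higher members was that of ITGA2, with a difference of 0.40 score units (SE 0.24, 95% interval -0.11 to 0.90, limma adjusted p = 0.937). ITGA3 and LAMA2 followed with 0.35 (-0.19 to 0.90) and 0.21 (-0.25 to 0.66). Without silenced replicate 3 these were 0.14 and 0.07. Among lower members ITGA7 had a difference of -0.28 (-0.73 to 0.17, limma adjusted p = 0.942), ITGA4 of -0.30 (-0.82 to 0.23) and ITGA5 of -0.26 (-0.81 to 0.29). ITGA4 was at -0.05 without silenced replicate 3, and ITGA5 at -0.06 without control replicate 3. The smallest of the 23 adjusted p-values was 0.937. The intervals of the 23 members reached from -0.84 to 0.95 score units, which sets the precision of these libraries.

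**Figure D3:**
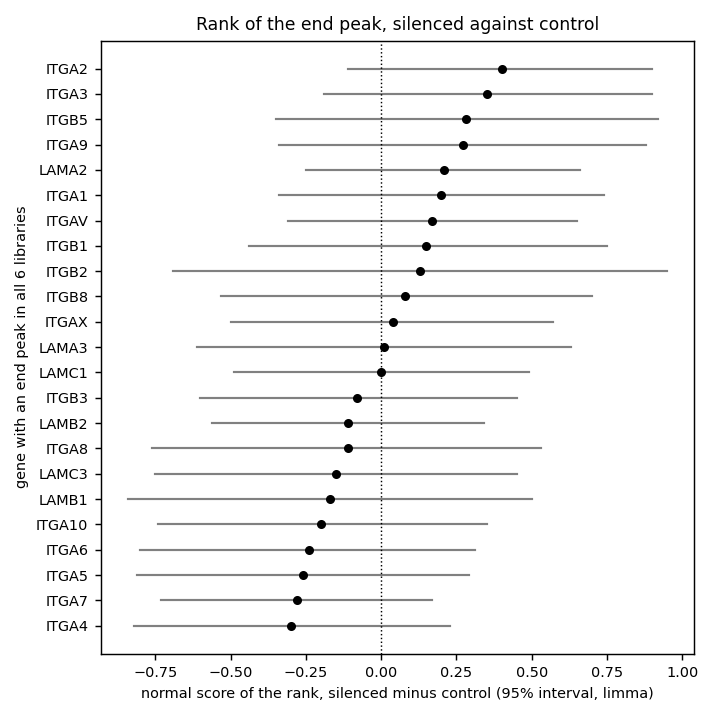
Difference in the normal score of the end peak's rank, silenced minus control (points, limma), with its 95% interval (lines), for the 23 genes with an end peak in all 6 libraries. The points run from -0.30 (ITGA4) to 0.40 (ITGA2), and every interval includes 0.

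Merging the 6 lists gave 963 regions in or near the 37 genes, of which 698 (72.5%) were called in 1 library and 94 (9.76%) in all 6. Over all 507440 regions 74.1% were called in 1 library and 7.35% in all 6. Of the 94, 26 lay within 1 kb of a gene end and 68 lay deeper, in 25 of the members. ITGA9 and LAMA2, among the longest members at 371 and 633 kb, had the most regions, 123 and 110, of which 5 each were called in all 6 libraries. ITGA3 had 5 of 10 regions called throughout, and ITGA2B 0 of 8.

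The strongest of the 68 inner regions was in LAMA4, 91.5 kb from its start (chr6:112163161-112163741), with heights of 31, 34, 17, 25, 33 and 33 and a mean percentile of 89.1 among all 37284 regions called in all 6 libraries. LAMA4 thus had a weak end peak and a strong inner one. ITGA1 held the next 2. One lay 12.0 kb from its start at the promoter window of PELO-AS1 (chr5:52799487-52800433), with heights of 45, 65, 27, 48, 58 and 49, taller in every library than the peak at the ITGA1 start. The other lay 161 kb from the start (chr5:52948504-52948920), with heights of 26, 27, 22, 26, 41 and 17. In LAMA1 a region 80.7 kb from its low-coordinate end (chr18:7022219-7022630) had heights of 33, 33, 22, 33, 31 and 28, although its end peak was absent in 1 library. A region 5.57 kb from the start of ITGAM (chr16:31265194-31265899) had heights of 36, 44, 18, 36, 30 and 30, while no peak overlapped the ITGAM promoter window in any library. ITGB5 carried one 132 kb from its start (chr3:124768813-124769366), with heights of 32, 36, 22, 28, 43 and 25. ITGB6, with no end peak, still had 2 inner regions called in all 6 libraries, of which the stronger lay 90.2 kb from its start at heights of 13, 11, 6, 14, 14 and 18. Its silenced heights were all below its control heights, while its percentiles of 63.8, 52.5, 39.6, 70.2, 62.9 and 77.2 overlapped between the groups. In the other 6 regions described here the silenced and control heights overlapped. Their percentiles overlapped as well, except in the LAMA1 region. There they were 87.4, 90.4 and 89.6 in silenced and 84.9, 84.1 and 80.7 in control libraries (limma unadjusted p = 0.183, adjusted p = 0.963). The LAMA1 region was not alone in this. Percentiles also lacked overlap in regions of LAMB4 and ITGA10, higher in silenced libraries, and of ITGA5 and ITGA7, lower in silenced libraries. How many regions lack overlap in percentile was not counted, for members or for all genes, so the LAMA1 separation has no background of its own. For the end peaks of all ranked genes, 5.63% lay wholly higher and 5.20% wholly lower in silenced libraries.

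**Figure D4:**
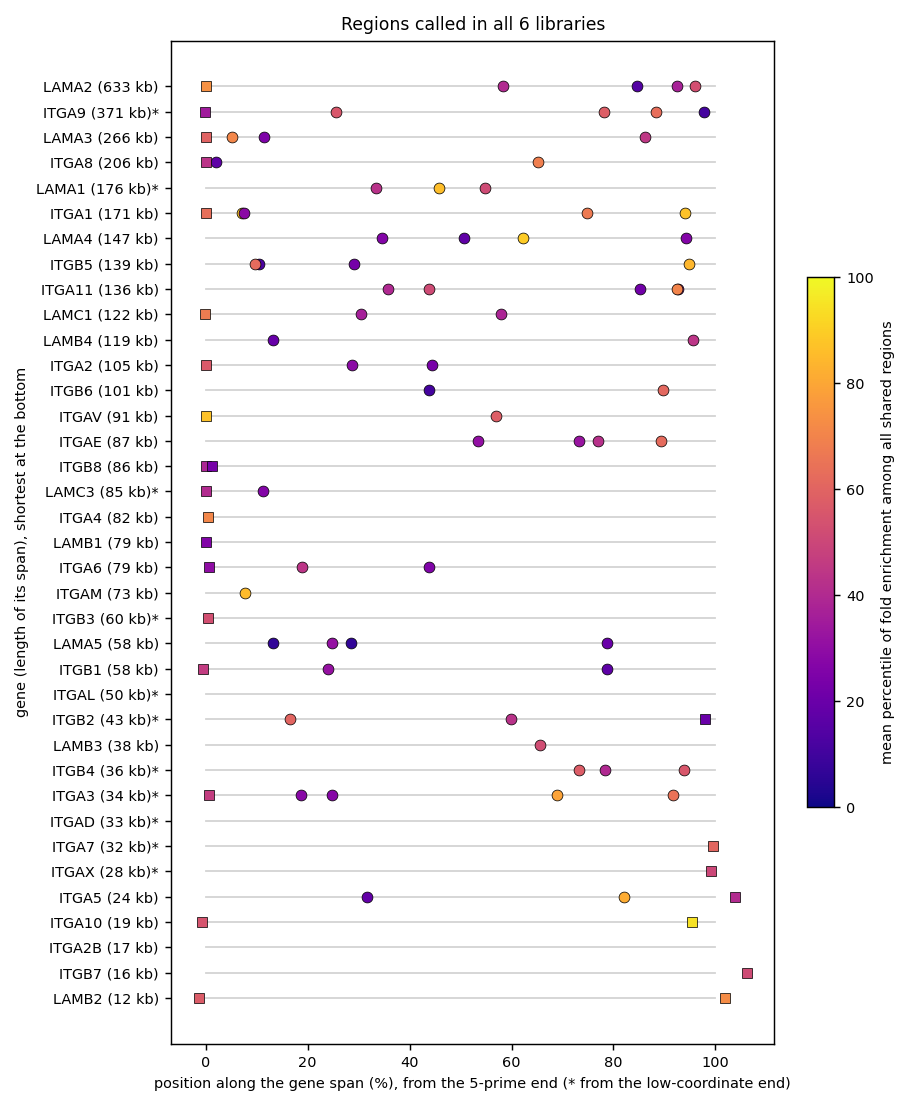
Position along the gene span (%) of the 94 regions called in all 6 libraries, one row per gene from the longest span to the shortest, with squares within 1 kb of an end, circles deeper in the gene, and colour for the mean percentile of fold enrichment. Positions count from the 5′ end, or from the low-coordinate end for genes marked with an asterisk, and ITGAL, ITGAD and ITGA2B have none.

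Ranks of these 94 regions were compared in the same way, with limma over all 37284 regions. No region of a member and no region of any gene passed an adjusted p of 0.05 (limma, background 0%; 1746 regions, 4.68%, had an unadjusted p under 0.05). In the members 2 of 94 regions had an unadjusted p under 0.05, both higher in silenced libraries, where 1.98% of all regions were higher and 2.70% lower at that limit. One was an inner region of LAMB4, 5.29 kb from its low-coordinate end, with percentiles of 62.9, 55.3 and 58.4 in silenced and 33.2, 15.4 and 39.4 in control libraries (difference 0.80, SE 0.31, limma adjusted p = 0.963). The other was the promoter region of ITGA10, with percentiles of 71.9, 57.0 and 69.2 against 31.2, 52.2 and 44.9 (difference 0.61, SE 0.27, limma adjusted p = 0.963). Heights overlapped between the groups in both, at 9 to 13 against 7 to 9 in LAMB4 and 15 to 27 against 13 to 22 in ITGA10.

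Member regions present in every library of just one group (3 against 0) numbered 3. An inner region of ITGA6 (chr2:172484402-172484721) was called in control libraries only, at heights of 3, 5 and 3, and one of ITGA3 (chr17:50072088-50072534) likewise at 4, 6 and 7. A region of LAMC3 (chr9:131076409-131076716) was called in silenced libraries only, at heights of 5, 7 and 3. Over all regions 0.200% were called in control libraries only and 0.130% in silenced libraries only, so 2 and 1 of 963 were near the background. None of the 3 remained when peaks were limited to an FDR of at most 0.05.

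Promoter sequence was set beside these calls for the 26 members with a RefSeq window of 300 bases (250 before and 50 after the start), with the window nearest the gene's end taken for each. A peak overlapped the window in all 6 libraries at 11 members, in 1 to 5 at 8 and in none at 7. Over all 35116 windows, counting every window of a gene, 12761 (36.3%) had a peak in all 6 libraries and 15892 had none. The observed-to-expected ratio of CpG had medians of 0.69, 0.485 and 0.356 in these sets. Over all windows the medians were 0.855 where a peak was called in all 6 libraries and 0.269 where none was. Of the 11 members with a peak in all 6 libraries, 6 lay below the lower quartile of such windows, 0.736 (ITGA1, ITGA10, ITGA2, ITGAV, LAMA2 and LAMB2), with ITGA10 the lowest at 0.114. Of the 7 with none, ITGAM and ITGB6 lay below the lower quartile of 0.14 and LAMA5, at 0.805, above the upper quartile of 0.487. Taking 1 window per gene left out further windows. ITGA6 has one 0.25 kb into the gene with a ratio of 1.01, 3 SP/KLF matches and a peak in all 6 libraries. LAMB3 has one 1.05 kb into the gene with a peak in 5 libraries. The further windows of ITGAV and ITGB1 had no peak. TEAD motifs were in 4 of the 26 windows (ITGA10, ITGA5, ITGB1 and LAMA2), AP-1 motifs in 2 (ITGA5 and LAMA3) and SP/KLF motifs in 14. The shares over all windows were 14%, 7.71% and 45%. Of the 4 windows with a TEAD match, 3 had a peak in all 6 libraries, and ITGA5 in 3. Over all windows 1304 of 4928 with a TEAD match had a peak in all 6 libraries, and the match was in 10.2% of windows with a peak in all 6 and 16.8% of windows with none. A match is a description of the letters and not a bound site.

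**Figure D5:**
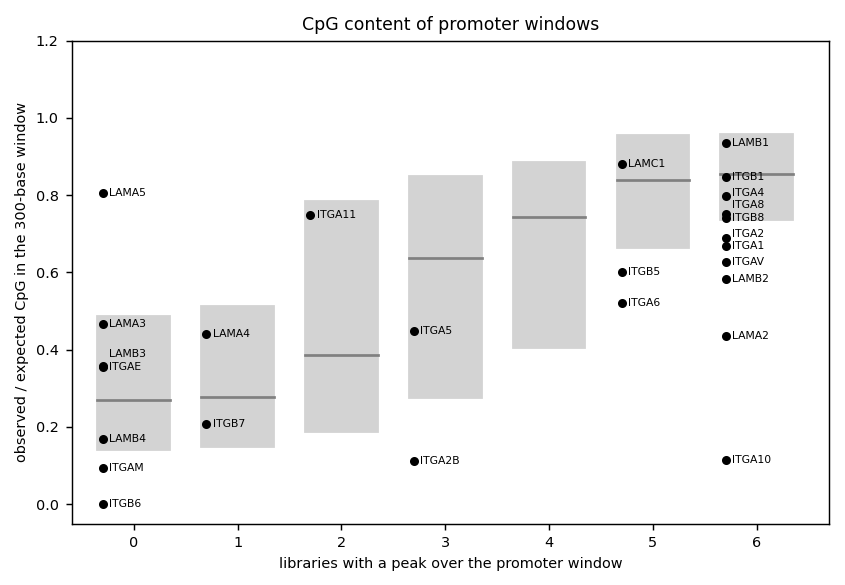
Observed-to-expected CpG ratio in the 300-base promoter window of 26 member genes (points) against the number of libraries with a peak over that window, beside the median (line) and interquartile range (grey box) of all windows with that number. LAMB1 (0.935) and ITGB1 (0.848) sit inside the box of windows open in all 6 libraries, ITGA10 (0.114) far below it, and LAMA5 (0.805) above the box of windows without a peak.

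The genes around the receptors were read from 2 further lists. Of 30 adhesome genes, which link integrins to actin and to signalling kinases, 20 had an end peak in all 6 libraries, among them TLN1, VCL, PXN, ILK and PTK2, and 3 in none (PARVA, PARVB and FERMT3). Of 20 basement membrane genes 13 had one in all 6 libraries, among them COL4A1, COL4A2, NID1 and FN1, and 2 in none (COL17A1 and SPARC). COL4A1 and COL4A2 had the same heights in every library and the same test values, as did COL4A5 and COL4A6. The genes of each pair are thus not separate observations. Among all protein-coding genes 58.0% had an end peak in all 6 libraries and 16.5% in none. No gene of either list was called in one group only and none passed the limma test, with 1 of the 20 tested adhesome genes and 0 of 13 basement membrane genes under an unadjusted p of 0.05. The smallest p was that of ITGB1BP1, which binds the tail of the ITGB1 product, with heights of 73, 81, 40, 52, 71 and 60 and a difference of 0.62 (SE 0.21, limma adjusted p = 0.937). The smallest p in the other direction was that of FERMT1, an epithelial integrin activator, with heights of 15, 13, 11, 13, 25 and 27 and a difference of -0.50 (SE 0.25, limma adjusted p = 0.937).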

How the data were processed

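The authors deposited 1 peak list per library, with peak names of a single library in each. Per the file headers, a row holds an interval, its fold enrichment (a ratio over local background), a p-value, an FDR (an adjusted p-value) and a pileup, here the height signal, all computed by the authors and compared here only among peaks of the same list. The submitters' processing notes name Trimmomatic 0.36, Bowtie2 2.2.6, Picard 2.8.2, MACS2 2.1.1, bedtools 2.25.0 and GRCh38, with no role or order. The shift of read ends for the transposase and the removal of duplicates and mitochondrial reads are not given in the sources used here, and they could move peak edges and heights.

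Peak midpoints were joined to RefSeq gene spans (GRCh38.p14) with pandas 2.3.3. Overlapping peaks (1 bp or more) of the 6 lists were merged into regions. Library values were compared with two-sided exact permutation tests (own code with numpy 2.4.6). Ranks by fold enrichment were turned into normal scores (scipy 1.17.1) and compared with limma 3.58.1 (lmFit, eBayes with trend, no covariate, Benjamini-Hochberg, threshold 0.05). The limma step was tested on simulated data. Promoter sequences are RefSeq's, and in all 2815 overlapping pairs on opposite strands they read as reverse complements. The alternatives were FDR limits of 1e-05 and 0.05, a height of at least 4, lists of equal size, ranks by height or p-value, other distances, each library left out and a block by replicate number. The best peak within 2 kb as the basis of the gene ranks was added after seeing the data.

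The members and lists were chosen with earlier results of these data known. Values by library were given for the 6 members with the highest mean percentile, members called in 1 to 5 libraries, the 3 smallest p-values in each direction and the 6 strongest inner regions, and for one-group regions the 4 in each direction with the lowest worst-case FDR. Other members, ITGB5 windows, the ITGB6 region and both regions with an unadjusted p under 0.05 were described after their values were seen.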

Additional observations from a re-analysis of the deposited data

How the results depend on the processing

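The difference in members with an end peak kept its sign or was 0 under the 14 alternatives, with p from 0.1 to 1 (exact permutation or sign-flip). Leaving out 1 library in turn gave -2.33 to -1.33 genes. The difference in peaks over the spans was 11.7 peaks, and it turned to -11.7 with an FDR limit of 1e-05, -18 with one of 0.05, -32.3 at a height of at least 4 and -16 in lists of equal size. It ranged from -25.5 to 38.2 with 1 library left out, and was negative without silenced replicate 1 or control replicate 2. The share of peaks in the spans differed by -0.0069 percentage points and by -0.0148 to 0.00623 with 1 library left out, positive without silenced replicate 2 or control replicate 2. The median percentile differed by 0.00752 points, by -0.135 at a height of at least 4, by 2.51 with ranks by height, 1.84 with ranks by p-value and 2.18 with an FDR limit of 1e-05, and by -0.881 to 1.86 with 1 library left out. These 3 measures had exact p-values of 0.2 or more throughout. Members called in one group only numbered 0, and 0 to 2 with 1 library left out, for which the share over all genes was not counted. Regions of members called in one group only numbered 3, but 0 at either FDR limit, 1 in lists of equal size, 2 at a height of at least 4, and 8 to 18 with 1 library left out, where 2 libraries against 3 suffice. Without control replicate 3 they were 6 silenced-only and 12 control-only of 833 member regions, beside 1328 and 3194 of all 434466 regions. Without silenced replicate 1 they were 6 and 2 of 808, beside 3553 and 2070 of 433773. The rise with 1 library left out was thus seen over all regions too. Genes passing limma numbered 2, but 1 at an FDR of at most 1e-05, 1 to 4 with 1 library left out and 0 with the best peak within 2 kb (limma; 956 of 18041 genes had an unadjusted p under 0.05). The 2 genes, MTMR4 and LOC105374606, were chosen after their values were seen. In MTMR4 the peak used lay 939 to 987 bp from the gene's end in silenced libraries and 288 to 321 bp in control libraries, and in LOC105374606 at 179 to 211 and 932 to 992 bp. No region passed limma under the 11 alternatives, with 854 to 2462 at an unadjusted p under 0.05. The 6 members with the smallest p-values kept their sign and none passed, but their size moved with 1 library left out: ITGA2 0.24 to 0.54, ITGA3 0.14 to 0.49, LAMA2 0.07 to 0.32, ITGA4 -0.45 to -0.05, ITGA5 -0.43 to -0.06 and ITGA7 -0.32 to -0.20. ITGA5 dropped out at an FDR of at most 1e-05. Replicate numbers did not pair the libraries. For this check the group mean of each gene was subtracted from its scores, and the remainders were correlated over genes. Between same-numbered silenced and control libraries these correlations were -0.0126, -0.00212 and -0.0128, and no silenced library matched its own number best. They are not correlations of the libraries themselves. With the replicate block, the difference of -2 members had an exact sign-flip p of 0.25, the smallest that 3 pairs allow, span peaks 0.75, share and median percentile 1, and limma called 3 genes and 0 regions. Where a value moved or turned, the cause was not tested.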
